A study of Arabidopsis thaliana with 8 samples.

Results

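The genes of 4 enzyme families that build, modify and release small molecules in plants were followed through cold in Arabidopsis seedlings with and without a wheat transcription factor. The members were the genes named by a probe set of 1 gene whose symbol is that of a cytochrome P450 (CYP), a UDP-glycosyltransferase (UGT), a glutathione S-transferase of the tau, phi, lambda, theta or zeta class (GST) or a beta-glucosidase (BGLU). A probe set is the group of short probes by which an Affymetrix array reads a transcript. This rule gave 103 members among 13356 named genes, namely 23 P450, 47 UGT, 13 GST and 20 BGLU genes. Of the P450 members, 19 belonged to the CYP71B branch, and of the GST members 11 belonged to the tau class (GSTU). All 103 had their own probe set of 1 gene, and no member had more than 1. A further 6 probe sets named a gene of these families together with another gene and were left out. Large parts of the families are therefore not represented, so each family statement below holds for the named members.

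These families carry much of plant specialised metabolism. Cytochrome P450s are heme enzymes that insert oxygen into their substrates, glycosyltransferases then move a sugar from a UDP-sugar onto hormones, phenolics and other small molecules, glutathione S-transferases join glutathione to reactive compounds or bind them, and beta-glucosidases remove glucose again and so free the stored compound. In seedlings, glucosylation sets the stored and active pools of several hormones and makes flavonoids and glucosinolates stable enough to be kept in the vacuole.

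The samples were whole seedlings, 10 days old and raised at 22 °C. Wild type of ecotype Col-1 was compared with L20, a single line overexpressing the wheat gene TabZIP6, which encodes a basic leucine zipper (bZIP) transcription factor, and both were sampled before cold and after 6 h at 4 °C. With 2 biological replicates in each of the 4 groups there were 8 arrays. The sources used here do not give the promoter that drives TabZIP6, and TabZIP6 has no probe set, so its level was not analysed here. Nothing in the labels says how far the replicates were separate cultures. P-values therefore cover only the spread among these samples, which may be technical, and an exact permutation test of 2 arrays against 2 cannot go below 0.333. In RNA from whole seedlings, fewer cells of a type and less RNA per cell cannot be told apart.

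All values are log2 signals, and differences are given on the log2 scale with the standard error (SE) of limma's moderated test. A member was called where limma's adjusted p, with the adjustment over all 22746 probe sets tested, was under 0.05. Array medians over all probe sets ran from 4.95 to 5.06. Replicate 1 and replicate 2 deviated in a shared way in every group (r of the replicate differences from 0.341 to 0.837 over all probe sets and from 0.315 to 0.650 over the members), so values from a replicate block, a fit with a term for the replicate number, stand beside the others where they changed a call. The first replicate of L20 before cold stood apart from the other arrays: 131 probe sets, 0.576% of those tested, read at least 1 log2 unit above all 7 others on it. Of the marker lists, 2 of 20 green tissue genes were measured, LHCB4.1 of the light-harvesting antenna and the Rubisco activase gene RCA, and both read between 12.62 and 13.52 on all 8 arrays. The root hair expansins EXPA7 and EXPA18, the 2 of 20 root genes measured, read between 3.70 and 5.41, and the 3 of 17 seed and pollen genes measured read between 3.36 and 5.30. No marker was called in any comparison, with or without the block. Green tissue genes were thus clearly read, while too few root and seed markers were measured to check those parts of the seedling.

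Signals of different probe sets are not comparable with each other, but a mean of at least 5 over the 8 arrays served as a filter on dim probe sets. Of the members, 36 of 103 (35.0%) passed it, against 50.6% of all probe sets. By family, 5 of 23 P450, 19 of 47 UGT, 5 of 13 GST and 7 of 20 BGLU members passed. The other 67 members were dim on these arrays, and background levels per probe were not analysed here.

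The flavonoid 3-O-glucosyltransferase gene UGT78D2 rose after 6 h of cold in wild type and in L20. It was the only member called in either line, 1 of 103 (0.971%), where 0.532% of all probe sets were called for cold in wild type and 0.378% in L20. With the replicate block, 3 members were called in each line, all higher after cold: UGT78D2, UGT72B3 and BGLU25 in wild type, and UGT78D2, UGT72B3 and GSTU26 in L20. These 3 were 2.91% of the members, against 1.57% of all probe sets called with the block in wild type and 2.55% in L20. No member was called lower in either fit. The medians of the members were 0.05 in wild type and 0.02 in L20, beside 0.03 and 0.00 for all probe sets, so the members' medians were within 0.03 of those of the array.

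UGT78D2 encodes the enzyme that adds glucose to the 3 position of flavonols and anthocyanidins. Its log2 signal was 4.69 and 5.14 in wild type before cold and 4.85 and 4.61 in L20 before cold. After cold it was 7.89 and 7.43 in wild type and 7.50 and 6.91 in L20. Every cold array read above every array before cold, and the lines overlapped before cold. The gene rose by 2.75 ± 0.29 (SE; 6.70-fold) in wild type, with an adjusted p of 0.0190 by limma and 0.00742 with the replicate block. In L20 it rose by 2.48 ± 0.29 (5.56-fold), with an adjusted p of 0.0288 by limma and 0.0113 with the block. The wild-type call was lost without any of the 4 wild-type arrays, where the difference still lay between 2.52 and 2.97 and the highest adjusted p was 0.147. The L20 call was lost without any 1 of the 8 arrays, with differences from 2.18 to 2.77 and adjusted p-values up to 0.190.

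The other flavonol glycosyltransferase genes were not called. UGT78D1, which attaches rhamnose to the same position of flavonols, read 6.07 and 6.56 in wild type before cold against 6.79 and 6.03 after, and its cold differences were 0.10 ± 0.49 in wild type and 0.18 ± 0.49 in L20. UGT78D3, which attaches arabinose and lies 1 gene away from UGT78D2 on chromosome 5, had cold differences of 0.01 and 0.07 with signals from 3.55 to 3.98. On the side of release, BGLU15, a beta-glucosidase of flavonol bisglycosides, differed by -0.26 in wild type and -0.12 in L20, and neither passed the test (adjusted p by limma 1.00 in both). No test set UGT78D2 against these genes.

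UGT72B3 was the other member called in both lines with the block. The UGT72 group is known for its E branch, UGT72E1 to UGT72E3, which glucosylates monolignols, the alcohols of which lignin is made. UGT72B3 read 6.24 and 6.45 in wild type and 6.30 and 6.86 in L20 before cold, then 7.79 and 8.07 in wild type and 8.05 and 8.29 in L20. All 4 cold arrays lay above all 4 earlier ones. The difference was 1.59 ± 0.24 in both lines, 3.01-fold in wild type and 3.02-fold in L20. It missed the threshold without the block, with adjusted p-values by limma of 0.0577 and 0.0629, and passed it with the block, at 0.00741 and 0.00862. No test set it against the monolignol genes, none of which was called. UGT72E1 differed by -0.25 in wild type and -0.56 in L20, UGT72E2, with signals from 4.38 to 5.26 over all arrays, by 0.22 in L20, and UGT72E3 by 0.20 and 0.21. The monolignol glucosidase genes BGLU45 and BGLU46 differed by 0.10 and 0.17 in wild type and by 0.04 and -0.22 in L20.

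**Figure D1:**
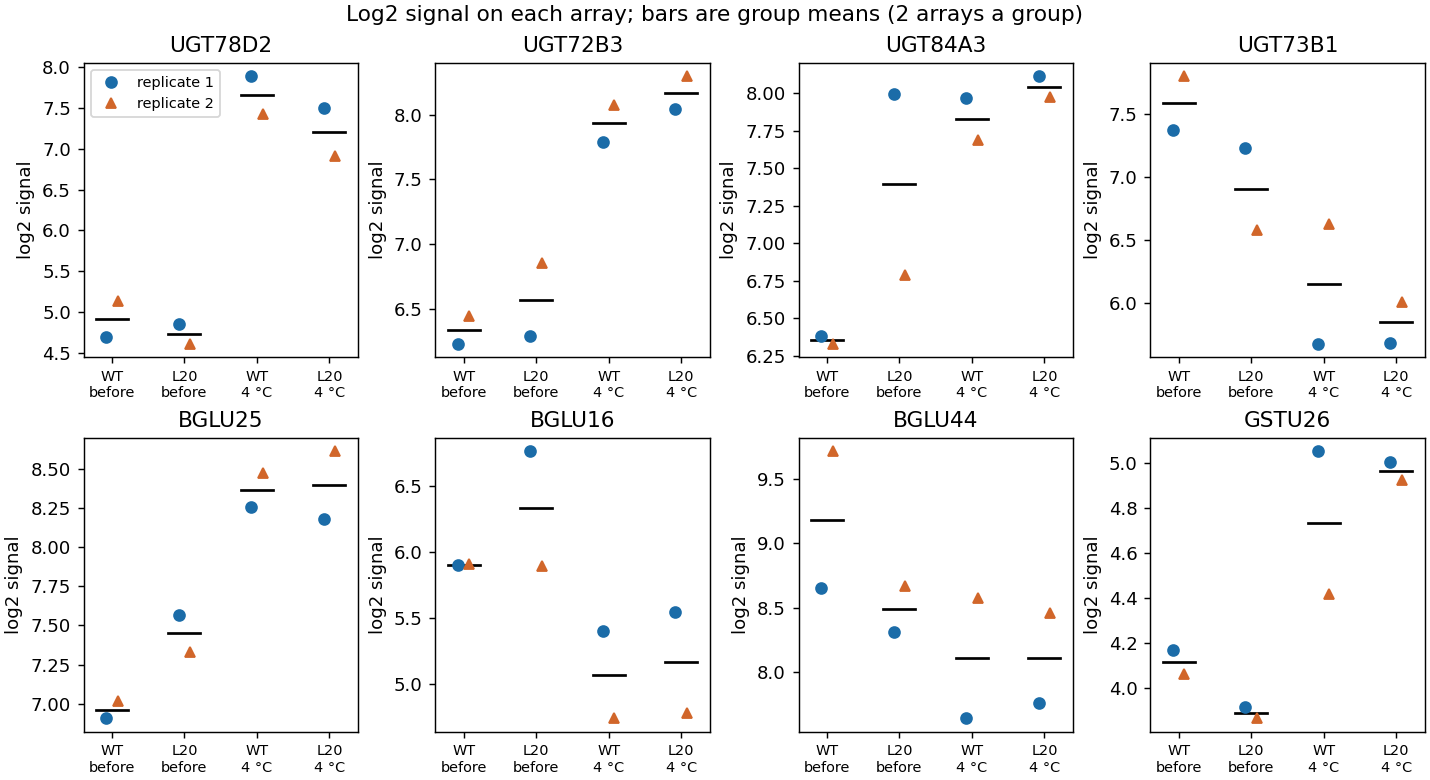
Log2 signal (vertical axes, scaled for each gene) of 8 members on each array in wild type (WT) and L20, before cold and after 6 h at 4 °C. Circles are replicate 1, triangles replicate 2 and bars group means. UGT78D2, UGT72B3, BGLU25 and GSTU26 read higher on all 4 cold arrays than on all 4 earlier ones, and in UGT84A3 replicate 1 of L20 before cold (8.0) already read at the cold level.

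The 4 arrays after cold were also set against the 4 before, a mean of both lines' cold responses that was added after seeing the data. With this contrast 3 members were called higher, UGT78D2 by 2.61 ± 0.20 (6.11-fold, limma's adjusted p = 0.00388), UGT72B3 by 1.59 ± 0.17 (3.01-fold, limma's adjusted p = 0.00934) and BGLU25 by 1.17 ± 0.15 (2.26-fold, limma's adjusted p = 0.0153). They were 2.91% of the members, beside 1.32% of all probe sets called higher. No member was called lower, where 0.787% of all probe sets were. UGT78D2 and UGT72B3 were called without each array in turn. BGLU25 was called without either cold array of L20 or replicate 1 of L20 before cold, and was lost without any of the other 5 arrays, with adjusted p-values up to 0.0608.

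With the replicate block the same contrast called 7 members higher, 6.80% against 3.13% of all probe sets, and 3 lower, 2.91% against 3.06%. Besides the same 3 genes, CYP71B26, UGT84A3, GSTU26 and BGLU40 rose by between 0.62 and 1.06. UGT73B1, BGLU16 and BGLU44 fell, by 1.25, 1.00 and 0.73 on the log2 scale. The share of members called lower was therefore near that of the array. By ranks alone, 8 members (7.77%) read higher and 7 (6.80%) lower on all 4 cold arrays than on all 4 others, against 5.05% and 4.3% of all probe sets.

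Glycosyltransferases of hydroxycinnamates were measured through UGT84A1, UGT84A3 and UGT84A4, neighbouring genes on chromosome 4 that make glucose esters of phenolic acids such as sinapate. UGT84A3 read 6.39 and 6.33 in wild type before cold and 7.97 and 7.69 after. The wild-type arrays were therefore separated by cold, with a difference of 1.47 ± 0.37 (2.78-fold) whose adjusted p by limma was 0.258, and 0.0744 with the block. In L20 the signals were 8.0 and 6.79 before cold and 8.11 and 7.98 after, and the difference of 0.65 ± 0.37 did not pass (adjusted p by limma 0.720). Replicate 1 of L20 before cold, the array that stood apart, gave the high reading. Without that array, the mean of both lines' cold differences for UGT84A3 was 1.36, against 1.06 over all 8 arrays. UGT84A1 differed by 0.46 and 0.42 and UGT84A4 by 0.30 and -0.31 in wild type and L20, and neither was called.

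The genes for hormone glucosides were low to moderate in signal and none was called for cold. Among cytokinin enzymes, the N-glucosyltransferase gene UGT76C2 differed by 0.24 ± 0.20 in wild type and 0.54 ± 0.20 in L20, while its adjacent relative UGT76C1 differed by -0.29 and -0.21. The cytokinin O-glucosyltransferase gene UGT73C1 read 5.93, 5.79, 5.91 and 6.03 before cold and 6.42, 6.37, 6.93 and 6.10 after. All 4 cold arrays lay above the others, with differences of 0.53 and 0.54 and an SE of 0.27. Among abscisic acid enzymes, UGT71C5 differed by -0.22 in wild type and by -0.93 ± 0.24 in L20 (limma's adjusted p = 0.215), UGT71B6 by -0.02 and -0.11, and UGT71B8 by 0.14 and -0.06. The gene of the vacuolar glucosidase that releases abscisic acid from its glucose ester, BGLU33, differed by 0.14 and 0.00. Auxin glucosyltransferase genes UGT74D1 (0.86 and 0.71, SE 0.52) and UGT84B1 (0.22 and 0.29) and salicylate enzymes UGT74F1 (0.05 and -0.06) and UGT76B1 (0.09 and 0.07) were not called either.

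In the glucosinolate pathway, the sulphur-rich defence compounds of this plant family, UGT74B1 adds glucose to the sulphur atom of the precursor. Its log2 signal was 6.09 and 6.44 in wild type and 6.59 and 5.94 in L20 before cold, against 5.50 and 5.49 and then 5.89 and 5.82 after. All cold arrays lay below the earlier ones, by a narrow margin in L20. The differences were -0.77 ± 0.25 in wild type and -0.41 ± 0.25 in L20, with adjusted p-values by limma of 0.471 and 0.765. CYP79A2, which starts benzylglucosinolate synthesis, differed by 0.17 and 0.05 at signals from 3.68 to 4.24. BGLU28, a glucosidase linked to glucosinolate breakdown under sulphur shortage, differed by -0.18 and -0.06.

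Among other UGT members, UGT73B1 read 7.38 and 7.80 in wild type and 7.23 and 6.58 in L20 before cold, and 5.67 and 6.62 in wild type and 5.68 and 6.00 in L20 after. Within each line the groups did not overlap. The differences of -1.44 ± 0.37 and -1.06 ± 0.37 had adjusted p-values by limma of 0.274 and 0.387, and the gene passed only in the mean of both lines with the block (adjusted p = 0.0362). The sterol glucosyltransferase gene UGT80B1 differed by 0.35 and 0.48, also with all cold arrays above the others. The 5 UGT85 members all had negative cold differences in both lines, where 10173 of 22746 probe sets did in wild type and 11360 in L20. Their medians were -0.12 in wild type and -0.35 in L20, and none was called. The L20 median was -0.51 in replicate 1 and -0.19 in replicate 2, and without replicate 1 of L20 before cold, the array that stood apart and the highest one for UGT85A2, UGT85A3 and UGT85A4, it was -0.09. UGT85A5 read 5.48, 5.71, 5.88 and 5.88 before cold and 5.32, 5.38, 5.28 and 5.30 after, a difference of -0.59 ± 0.16 in L20 with limma's adjusted p of 0.257. Of these 5 genes, UGT85A7, UGT85A2, UGT85A5 and UGT85A3 follow one another on chromosome 1. In this group cross-hybridisation between their probes was not tested.

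The P450 members held no call for cold in either line. The family medians were 0.03 and 0.02. CYP71B26 was the member with the largest L20 difference, 0.84 ± 0.19 (limma's adjusted p = 0.170). It read 6.13, 6.47, 5.87 and 5.65 before cold and 6.62, 6.78, 6.66 and 6.55 after. Cold arrays lay above all others, and the mean of both lines, 0.62, passed only with the block (adjusted p = 0.0389). CYP78A9, a regulator of fruit and seed size, differed by 0.81 ± 0.30 in wild type and 0.65 ± 0.30 in L20, with adjusted p-values by limma of 0.611 and 0.570. CYP71B6, which acts on indole-3-acetonitrile, differed by -0.49 ± 0.19 and -0.33 ± 0.19 and read lower on every cold array. CYP71B23 (-0.55 and -0.59) and CYP71B28 (-0.43 and -0.57) also read lower on every cold array without being called. The pseudogene CYP71B30P stayed between 3.33 and 3.62.

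Of the GST members, GSTU26 of the tau class was the one called for cold over all 8 arrays, in L20 and in the mean of both lines, each time with the block. It was among the dim members, with a mean under 5 over the 8 arrays. It read 4.17 and 4.06 in wild type and 3.92 and 3.87 in L20 before cold, and 5.05 and 4.42 in wild type and 5.01 and 4.92 in L20 after. All cold arrays lay above the earlier ones, and replicate 2 of wild type was the lowest of them. The difference in L20 was 1.07 ± 0.23 (2.105-fold), with an adjusted p by limma of 0.145 and 0.0416 with the block, and in wild type it was 0.62 ± 0.23 (adjusted p 0.620 by limma). Its immediate neighbour on chromosome 1, GSTU25, differed by -0.04 and 0.02. GSTU20, whose protein interacts with the jasmonate-conjugating enzyme FIN219, read between 8.13 and 9.97 and differed by 0.14 and 0.72 with an SE of 0.49. GSTL3, a lambda-class enzyme gene whose product acts on flavonols, differed by -0.21 and 0.25, and the family medians were -0.01 in wild type and 0.06 in L20.

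Among the beta-glucosidases, BGLU25 read 6.91 and 7.02 in wild type and 7.57 and 7.33 in L20 before cold, then 8.26 and 8.47 in wild type and 8.18 and 8.61 in L20. Cold arrays lay above all earlier arrays, and the lines overlapped after cold. The wild-type difference of 1.40 ± 0.21 (2.64-fold) had an adjusted p by limma of 0.0568, and 0.0212 with the block. In L20 it was 0.95 ± 0.21 (1.93-fold), with 0.156 and, with the block, 0.0571. BGLU40 read 5.99 and 5.58 in wild type before cold and 7.39 and 6.47 after, against 6.57 and 6.28 and then 7.11 and 6.16 in L20. The wild-type groups were apart (1.14 ± 0.41, limma's adjusted p = 0.572) and those of L20 overlapped (0.21 ± 0.41).

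On the lower side, BGLU16 read 5.90 and 5.91 in wild type and 6.76 and 5.89 in L20 before cold, and 5.40 and 4.74 in wild type and 5.55 and 4.78 in L20 after. All cold arrays lay below the earlier ones. Its differences were -0.83 ± 0.39 and -1.16 ± 0.39, with adjusted p-values by limma of 0.856 and 0.358. BGLU44, which hydrolyses mannosides, read 8.65 and 9.71 in wild type before cold and 7.64 and 8.57 after, and 8.31 and 8.67 and then 7.76 and 8.46 in L20. In each group replicate 2 read higher than replicate 1, and replicate 2 of wild type before cold stood 1.05 above the next array. The differences were -1.08 ± 0.46 and -0.38 ± 0.46. BGLU42, known from iron-deficiency responses of roots, differed by -0.32 and -0.14.

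**Figure D2:**
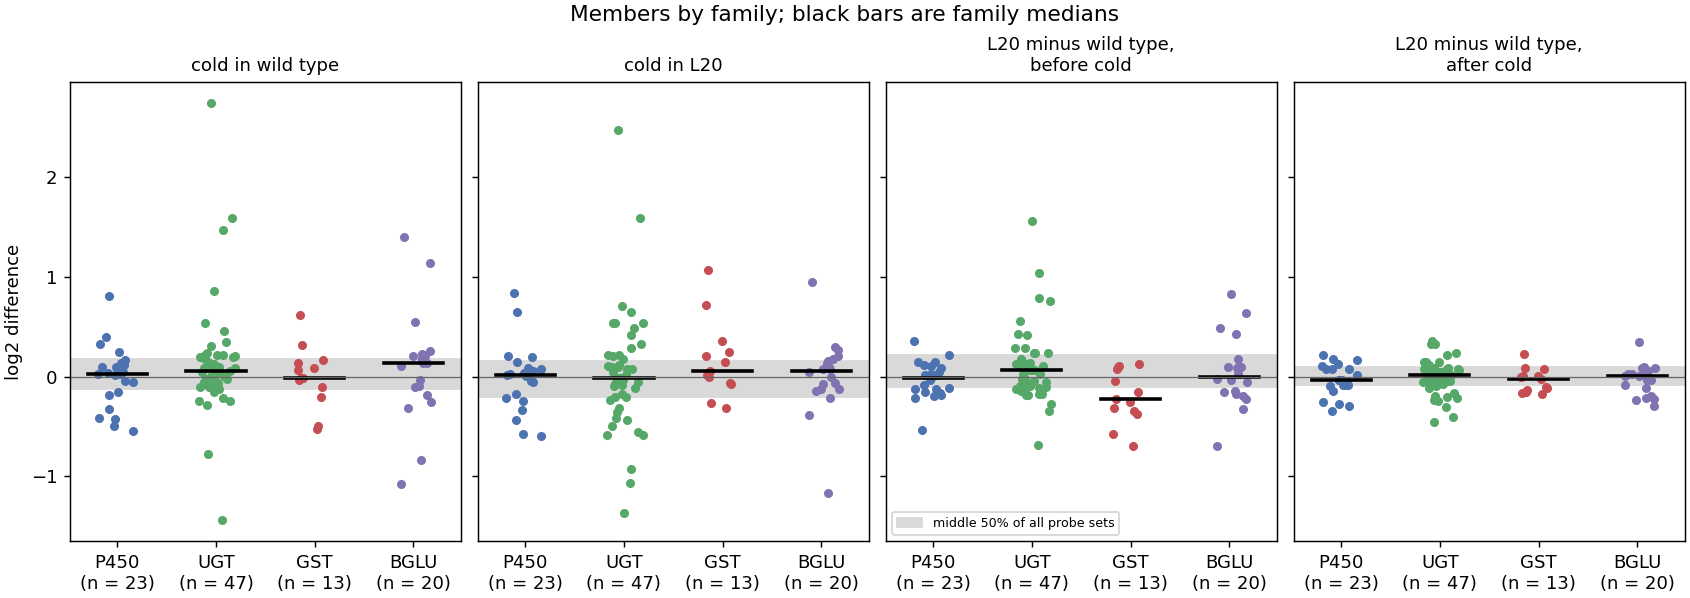
Log2 difference (vertical axis) of each member, by family, for cold in wild type, cold in L20, and L20 minus wild type before and after cold. Points are members, black bars are family medians and the grey band holds the middle 50% of all probe sets. Family medians stay between -0.23 and 0.14, and the member farthest from 0 is UGT78D2, at 2.75 and 2.48 for cold.

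At an unadjusted p under 0.05, 10 members (9.71%) passed for cold in wild type and 11 (10.7%) in L20, against 6.63% and 9.73% of all probe sets. The wild-type groups did not overlap for 25 members that read higher and 17 that read lower (24.3% and 16.5%, beside 16.9% and 12.3% of all probe sets). In L20 these counts were 20 and 18 (19.4% and 17.5%, beside 15.4% and 18.1%). A cold difference of at least 2-fold was seen upward in 5 and downward in 2 members in wild type, and in 3 and 3 in L20, beside 2.35%, 1.47%, 2.29% and 2.49% of all probe sets. In wild type each of these shares lay above that of the array, and in L20 each did apart from that of groups that read lower without overlap. The gaps between members and array were not tested.

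The cold differences of the 103 members in wild type and in L20, which share no array, correlated at 0.779 across members, and at 0.646 across all probe sets. Without UGT78D2 and UGT72B3 it was 0.654 over 101 members. Members are not independent replicates, and same-numbered replicates of both lines deviated together. Taking replicate 1 of wild type with replicate 2 of L20 gave 0.676, and the reverse gave 0.571. The direction was the same in both lines for 70 of 103 members. This count was not made for all probe sets, so it cannot be read as particular to the members.

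**Figure D3:**
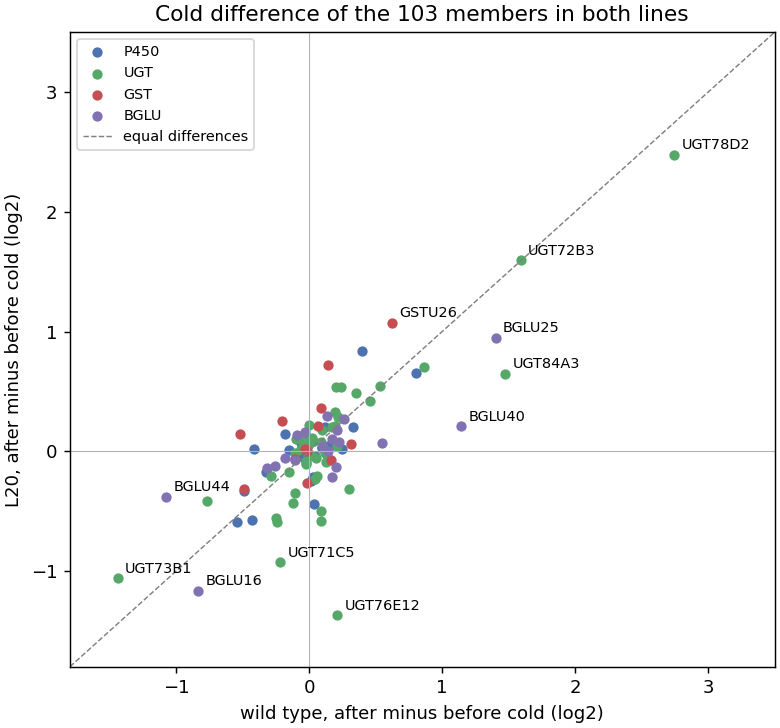
Cold difference (log2, after minus before) of the 103 members in wild type (horizontal axis) and L20 (vertical axis), coloured by family. The dashed line marks equal differences. UGT78D2 and UGT72B3 lie near it, while UGT76E12 reads 0.21 in wild type and -1.37 in L20.

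Before cold, no member was called between L20 and wild type. limma called 0 of 103, with and without the replicate block, where 0.0176% of all probe sets were called without it and 0.167% with it. At an unadjusted p under 0.05, 3 members were higher and 2 lower in L20 (4.85% together, beside 5.54% of all probe sets). Groups did not overlap for 15 members higher and 11 lower in L20, 14.6% and 10.7%, beside 17.4% and 10.3%. A difference of at least 2-fold was seen upward in 2 members, UGT76E12 and UGT84A3, and downward in 0, beside 1.52% and 0.892% of all probe sets. This comparison shares its arrays with the cold comparisons, so a high reading in L20 before cold also lowers the cold difference of L20.

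The largest difference before cold was that of UGT76E12, which read 3.22 and 3.31 in wild type and 5.91 and 3.75 in L20. It amounted to 1.56 ± 0.60 (2.95-fold) with limma's adjusted p of 0.848, and was 2.68 in replicate 1 and 0.44 in replicate 2. Without the array that stood apart it was 0.49. Leaving out replicate 2 of L20 before cold instead, so that the array that stood apart was the only L20 array before cold, UGT76E12 was called lower after cold in L20, with a difference of -2.44 (limma's adjusted p = 0.0484), and in the mean of both lines, with -1.12 (limma's adjusted p = 0.0316). UGT76E11, which lies 1 gene away on chromosome 3, read 4.11 and 3.72 in wild type and 5.22 and 3.73 in L20, and UGT87A2, which affects flowering time, read 6.47 and 5.81 and then 8.08 and 5.70. These 3 were the members that read at least 1 log2 unit above all other arrays on replicate 1 of L20 before cold, 2.91% of members beside 0.576% of all probe sets. In replicate 2 the lines differed by 0.01 for UGT76E11 and by -0.10 for UGT87A2. What set that array apart was not tested.

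UGT71C5, an abscisic acid glucosyltransferase gene, read 4.99 and 5.24 in wild type and 6.16 and 5.66 in L20 before cold. Both L20 arrays lay above both wild-type arrays, with a difference of 0.79 ± 0.24 (1.73-fold) and limma's adjusted p of 0.625, or 0.235 with the block. Without the array that stood apart it was 0.54. UGT71C4 and UGT71C3, the next genes along the chromosome, differed the other way at -0.27 and -0.35. UGT84A3 was higher by 1.04 ± 0.37 (limma's adjusted p = 0.788), with 1.61 in replicate 1 and 0.46 in replicate 2.

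On the lower side before cold, GSTU27 read 7.26 and 7.90 in wild type and 6.71 and 7.07 in L20, a difference of -0.69 ± 0.26 (limma's adjusted p = 0.822). Both L20 arrays lay below both wild-type arrays, and the replicates gave -0.55 and -0.83. Leaving out 1 array moved it to between -1.01 and -0.37. CYP71B26 differed by -0.53 ± 0.19 (limma's adjusted p = 0.813). The GST family had the family median farthest from 0 in this comparison, -0.23, with 9 of 13 members below 0. Over all probe sets the median was 0.04, with 9791 of 22746 below 0. Taken within each replicate, the GST median was nearer 0, at -0.15 in replicate 1 and -0.05 in replicate 2. GSTL3 differed by -0.38 ± 0.27 and GSTU20 by -0.58 ± 0.49, the latter with 0.34 in replicate 1 and -1.498 in replicate 2. The medians of the other families were -0.01 for P450, 0.06 for UGT and 0.00 for BGLU. BGLU19 had the largest BGLU difference, 0.83 ± 0.62, reading 4.62 and 4.53 in wild type and 5.16 and 5.64 in L20.

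**Figure D4:**
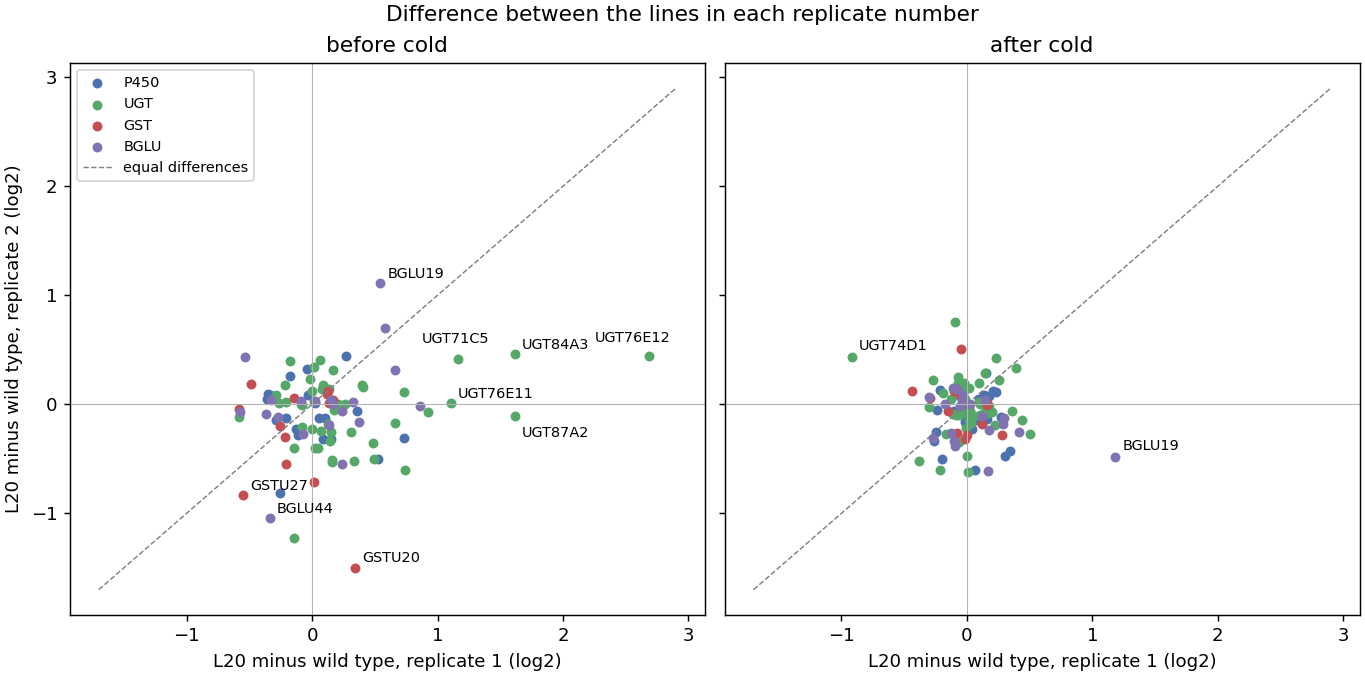
Log2 difference of L20 minus wild type for each of the 103 members in replicate 1 (horizontal axis) and replicate 2 (vertical axis), before cold (left) and after cold (right). The dashed line marks equal differences. Before cold the points spread to 2.68 in replicate 1 (UGT76E12), and after cold most points sit within 0.5 of 0 in both replicates.

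After 6 h of cold, too, no member was called between the lines. limma again called 0 of 103 members with and without the block, where 0% of all probe sets were called, and 0 members passed at an unadjusted p under 0.05, where 0.0835% (19 probe sets) did. Differences between L20 and wild type ran from -0.45 (UGT78D2) to 0.36 (UGT74B1). Their standard deviation over members was 0.237 in replicate 1 and 0.249 in replicate 2, against 0.482 and 0.371 before cold. The same narrowing was seen over all probe sets, from 0.515 and 0.411 before cold to 0.204 and 0.209 after. The arrays before cold were also less even, with upper quartiles from 6.28 to 6.65 against 6.46 to 6.53 after. Over all probe sets, the replicate differences of both lines correlated at 0.341 before cold and 0.837 after. What narrowed the differences between the lines was not tested. Groups did not overlap for 8 members higher and 12 lower (7.77% and 11.7%, beside 8% and 6.81%). For UGT78D2 the 95% interval of the L20 difference after cold was -1.13 to 0.23, an interval that holds 0. BGLU19 and UGT74D1 differed most between replicates, with 1.18 and -0.48 for BGLU19 and -0.92 and 0.43 for UGT74D1.

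The difference between the cold responses of L20 and wild type was tested directly. limma called 0 members with and without the block, where 0% of all probe sets were called, and 0 members passed at an unadjusted p under 0.05, where 2.18% (497 probe sets) did. The difference had the same sign in both replicate numbers for 18 members above 0 and 25 below (17.5% and 24.3%, beside 21.4% and 30.1%). For UGT72B3 it was 0.00, with a 95% interval from -0.81 to 0.82, and for UGT78D2 it was -0.27, from -1.23 to 0.69. Differences within these intervals could not be resolved with 2 arrays per group. UGT76E12 had the largest difference, -1.58 ± 0.85, and it was -2.66 in replicate 1 and -0.50 in replicate 2. BGLU40 differed by -0.93 ± 0.58, with -0.85 and -1.01, and GSTU27 by 0.67 ± 0.36, with 0.68 and 0.65. These were not called (adjusted p by limma 1.00 for each).

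Neighbouring members, which often arose by tandem duplication, could give unlike values in cold, and the pairs below were picked after their values were seen. Besides UGT78D3 with UGT78D2 and GSTU25 with GSTU26, BGLU43 differed by -0.11 in wild type and -0.07 in L20. The adjacent BGLU44 differed by -1.08 and -0.38. BGLU27 differed by 0.26 in wild type and 0.27 in L20, beside -0.83 and -1.16 for the adjacent BGLU16. CYP71B34, next to CYP71B26, differed by -0.32 and -0.17. UGT73C2, next to UGT73C1, differed by -0.11 and -0.01. In each of these pairs the gene with the smaller difference was dim, with a mean under 5, and so was GSTU26. The difference within a pair was not tested. Over the 8 arrays, neighbours correlated from -0.769 (BGLU27 with BGLU16) to 0.911 (UGT73D1 with UGT73C7), so other pairs varied together.

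Related genes outside the families were sparsely measured and none was called in any comparison, with or without the block. Of 17 genes of P450 electron supply and glutathione, 1 was measured. This was the glutathione reductase gene GR, which differed by 0.73 ± 0.32 for cold in wild type and 0.79 ± 0.32 in L20. Of 31 glucosinolate genes 5 were measured, and the transporter gene GTR2 read 7.85 and 8.33 in wild type and 8.43 and 8.65 in L20 before cold, against 7.49 and 7.29 and then 7.57 and 7.15 after. Its differences were -0.70 ± 0.24 and -1.18 ± 0.24, with adjusted p-values by limma of 0.523 and 0.121. Of 22 phenylpropanoid genes 1 was measured, HCT of lignin synthesis, which differed by 0.51 ± 0.23 and 0.52 ± 0.23. None of 19 transporters of conjugates and none of 33 genes of abscisic acid, jasmonate and brassinosteroid had a named probe set of 1 gene, so these were not analysed here.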

How the data were processed

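RNA of each seedling sample was read on its own Affymetrix array, and the titles of the samples gave group and replicate. The authors deposited 1 table of log2 values for 22810 probe sets on 8 arrays. The submitters' processing notes name RMA, a method that subtracts background, forces arrays to a common distribution and averages each probe set's probes. Its version is not given. Changes are therefore relative to the bulk of probe sets. The deposited values did not fully share 1 distribution, with array upper quartiles from 6.28 to 6.65. No counts underlie the values, so the number of arrays limits the precision.

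Control probe sets (64) were removed. Of the 22746 tested, 13513 named 1 gene in the platform annotation and 503 several. Symbols followed RefSeq (TAIR10.1), which held all 103 members. No probe set carried the symbol UGT75C1, which the rule leaves out. limma 3.58.1 in R 4.3.3 fitted a mean per group over all 8 arrays, with eBayes and Benjamini-Hochberg adjustment, two-sided. A run on simulated data checked only that the mean estimate came near the change put in, and its rates of recovered and false calls are not reported here. Replicate numbers were treated as a shared batch from the data, not from the labels. Members, gene lists, tests and the rule for naming genes were chosen with earlier results of these data known. Named were members called by either fit, the largest differences per family among groups that do not overlap, and members of a list of known roles, some left out for space. The alternatives were the replicate block, quantile normalization, median centring, a mean of at least 5, trend and robust variance settings, and leaving out each array.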

Additional observations from a re-analysis of the deposited data

How the results depend on the processing

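No called result reversed its direction under the alternatives run. A tally covered 26 results, those of members with an unadjusted p by limma under 0.05 or a call with the block. Calls were lost in 12 and gained in 9 combinations of result and alternative, and the other 312 kept their side of the threshold. Without the block only UGT78D2 was called, in wild type and in L20, with 13 alternatives each, so all 12 losses fell on it. Most of the 312 were results that stayed uncalled. The mean of both lines and UGT76E12 for cold in L20 were not in the tally. The replicate numbers pair the arrays in the data, and in a replicate block fit the counts of probe sets called were 357 for cold in wild type, 580 for cold in L20 and 38 for L20 minus wild type before cold (121, 86 and 4 without it). The block gave 3 members called for cold in wild type, 3 in L20 and 10 for the mean of both lines, and changed no other count of members. Quantile normalization of the deposited columns gave 183, 204 and 17 probe sets in the same comparisons, and a mean of at least 5 gave 138 for cold in L20 and 8 before cold. For cold in wild type, 3 members were called with array medians subtracted and 3 with the mean of at least 5, and 2 were called with that filter for cold in L20.

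Family medians, which lay near 0, moved and in part changed sign. For cold in wild type, quantile normalization gave 0.000475 for P450 and 0.0279 for UGT, subtracting array medians gave 0.00491 and 0.0317, and the filter gave 0.0974 for UGT and -0.208 for GST. For cold in L20, the GST median was 0.0785 after centring and 0.249 with the filter. Also with the filter, the medians of L20 minus wild type before cold were -0.377 for GST and 0.425 for BGLU, and that of UGT after cold was 0.0618. For the difference of the cold responses, the filter gave 0.161 for P450, 0.457 for GST and -0.330 for BGLU, centring gave 0.190 for GST and -0.00444 for BGLU, and quantile normalization gave -0.0652 for BGLU. The filter tests fewer genes and leaves 5 P450, 19 UGT, 5 GST and 7 BGLU members, so its medians describe smaller sets. The other causes were not tested.

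Leaving out each array in turn gave 0 to 91 probe sets called for cold in wild type, 0 to 34 for cold in L20 and 0 before cold, where fewer samples enter the fit. A group left with 1 array was assumed to vary like the others. Members called ran from 0 to 1 for cold in wild type and in L20, and from 2 to 4 for the mean of both lines. The 1 member called for cold in L20 was UGT76E12, lower, without replicate 2 of L20 before cold. Medians for cold in wild type ran from -0.0149 to 0.0543 for P450, 0.0289 to 0.126 for UGT, -0.0934 to 0.0943 for GST and 0.00510 to 0.220 for BGLU. For cold in L20 they ran from -0.0638 to 0.0183 for P450, -0.0137 to 0.0966 for UGT and 0.0228 to 0.103 for GST. Before cold they ran from -0.0320 to 0.119 for UGT and -0.226 to -0.119 for GST, and after cold from -0.0894 to -0.0120 for GST and -0.122 to 0.0252 for BGLU. For the difference of the cold responses they ran from -0.143 to 0.0375 for UGT, 0.0974 to 0.214 for GST and -0.131 to 0.0863 for BGLU.

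No member had more than 1 probe set, so averaging probe sets gave the same values and was not run, and a promoter motif search was not run. With 2 arrays per group and 67 dim members, small changes of these genes could not be resolved, and the signal over background of each probe was not analysed here.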

Other observations

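A run of tau-class glutathione S-transferase genes on chromosome 1 held 4 members next to each other, GSTU20, GSTU21, GSTU22 and GSTU23. GSTU21 read 4.09 and 3.62 in wild type and 3.51 and 3.57 in L20 before cold, and its difference of -0.31 before cold did not pass limma's test, as for the other 3. GSTU22 and GSTU23 read between 3.44 and 3.90 on all arrays. UGT88A1 read between 9.18 and 9.63 on all 8 arrays, with cold differences of 0.17 in wild type and 0.20 in L20 that did not pass the test. BGLU31 and BGLU32, adjacent on chromosome 5, read between 3.27 and 3.78.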
